A study of Homo sapiens with 60 samples.

Results

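HT29 cells, an established line from a human colorectal adenocarcinoma, were treated for 24 h with an ethanol extract of Aucklandiae Radix at 74 µg/mL (the medium dose) or at 14.8 µg/mL (the low dose), and their mRNA was sequenced. The comparison takes the 2 medium-dose and the 2 low-dose libraries, replicates 2 and 3 of each, which carry the same set number in their names. They are 4 of the 60 libraries of the series, and the choice rests on the labels alone, not on measured values. The series profiles 8 herbal extracts at 3 doses beside a DMSO vehicle, to describe what herbal formulas and their herbs do to the transcriptome. Aucklandiae Radix at 370 µg/mL (the high dose, 2 libraries) and the vehicle (3 libraries) are used as further groups. So are the medium and low doses of Polygalae Radix (76 and 15.2 µg/mL, 2 libraries each). The high and low doses of the formula Guibi-tang (500 and 20 µg/mL, 3 libraries each) are used too. Calls are also counted for Polygalae Radix at 380 µg/mL (2 libraries) and Guibi-tang at 100 µg/mL (3 libraries). Menthae Herba, Saengmaek-san and Saposhnikoviae Radix (3 libraries each) and Soyo-san (2 each) are counted likewise at 500 against 20 µg/mL. Of the Saposhnikoviae Radix low dose 1 library was left out of the fit. Per the series' design text the high dose of an extract was its IC20 where that lay below 500 µg/mL, with doses stepped down 5-fold from there, so that the medium dose lies 5-fold below the IC20 by that design. All cells are of 1 line, all treatments lasted 24 h, and the strength of the DMSO vehicle is given differently in the labels and in the design text. Nothing in the labels ties replicates to separate cultures. The p-values therefore reflect the scatter among these libraries only, and that scatter may be technical.

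Aucklandiae Radix is the root of Aucklandia lappa and is known for the sesquiterpene lactones costunolide and dehydrocostus lactone, whose reactive methylene group binds thiols of proteins. Cells sense such electrophiles through KEAP1, a cysteine-rich adaptor that otherwise leads the transcription factor NRF2 to degradation. NRF2 that escapes KEAP1 binds antioxidant response elements and raises genes for glutathione and thioredoxin chemistry, NADPH supply, iron storage and the reduction of reactive carbonyls. In the gut epithelium a second axis decides cell fate: ATOH1 drives progenitors to the secretory (goblet) fate, and Notch signals from neighbours, sent through ligands such as DLL4, suppress it. HT29 cells keep features of both absorptive and mucus-secreting epithelium.

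The 4 libraries held between 24749056 and 26397406 expected counts, within the 17079221 to 36796414 of all 60. Levels below are CPM, counts scaled to a common library total after TMM normalisation. Each adjusted p is from edgeR's quasi-likelihood test, corrected by the Benjamini-Hochberg method across the 16978 genes kept. Called means an adjusted p under 0.05. The error after a log2 fold change is its standard error. All 14 markers of colon epithelium were measured, 2 of them higher and 1 lower at the medium dose. Of the markers of other cells, COL1A2 and PDGFRA (2 of 10 fibroblast markers), CDH5, EMCN and KDR (3 of 7 endothelial), CD3D, CD3E, HBB, MS4A1 and SPI1 (5 of 12 blood) and AHSG, ALB, APOA2, HP and TF (5 of 9 hepatocyte) were at 0 in all 4 libraries, and 0 of the other members tested were called by edgeR or by DESeq2. At an unadjusted p under 0.05, 2 blood and 1 endothelial marker were higher and 1 hepatocyte marker lower. With only the 4 libraries in the fit, edgeR called 1 blood marker higher and 1 hepatocyte marker lower. The summed level of the list was 2.57 and 2.34 CPM in the medium-dose libraries and 2.72 and 2.57 CPM in the low-dose libraries for fibroblasts, 2.94 and 3.53 against 2.44 and 2.53 CPM for endothelium, 1454 and 1529 against 1489 and 1472 CPM for blood and 282 and 307 against 329.9 and 339.9 CPM for liver. Mitochondrial transcripts took 9.50% and 9.61% of counts in the medium-dose libraries and 11.0% and 9.82% in the low-dose libraries, and their part in the results was not tested. A library of another extract, Saposhnikoviae Radix low replicate 2, stands apart and was left out of the fit. Okbyeongpung-san, with 1 library at each dose, was left out as well. The spread was thus estimated over 56 libraries. In bulk RNA, fewer cells of a type and less RNA per cell cannot be told apart.

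Between the medium and the low dose, 442 of 16978 genes were called (2.60%), 256 of them higher at the medium dose (1.51%) and 186 lower (1.10%). Most changes were small: the median log2 fold change was 0.33 among the genes that rose and -0.40 among those that fell, against 0 over all genes tested. Only 13 of the genes that rose and 16 of those that fell changed by at least 2-fold. Of the called genes 423 are protein-coding. In all 442 the libraries of the doses did not overlap, which is also so for 8250 of the 16978 genes (48.6%) and says little by itself. FTL, FTH1, NQO1, GSR, TXNRD1, SCEL, EMP1, ADAM19 and KRT20, among other genes described below, lost their call with the outlying library kept in the fit. In that fit the count was 50 (30 higher, 20 lower), and all 50 were among the 442. Without medium replicate 2 it was 186, without medium replicate 3 it was 214, without low replicate 2 it was 197 and without low replicate 3 it was 239, and no gene called in such a fit and in that of 56 libraries had the other sign. Among 83 called genes that were followed one by one, most of them described below, only 18 kept their call in all of 13 alternative fits. These fits include that with the outlying library and those without 1 of the 4 libraries. Among the 18, AKR1C1, AKR1C2, AKR1B10, ALDH3A1, CYP4F3, CYP24A1, DHRS9, AHNAK2, SDCBP2, DUSP5 and ITGB7 rose. LINC00261, DLL4, REG4, EPHB3, SLC38A11 and RASL11A, also among them, fell.

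**Figure D1:**
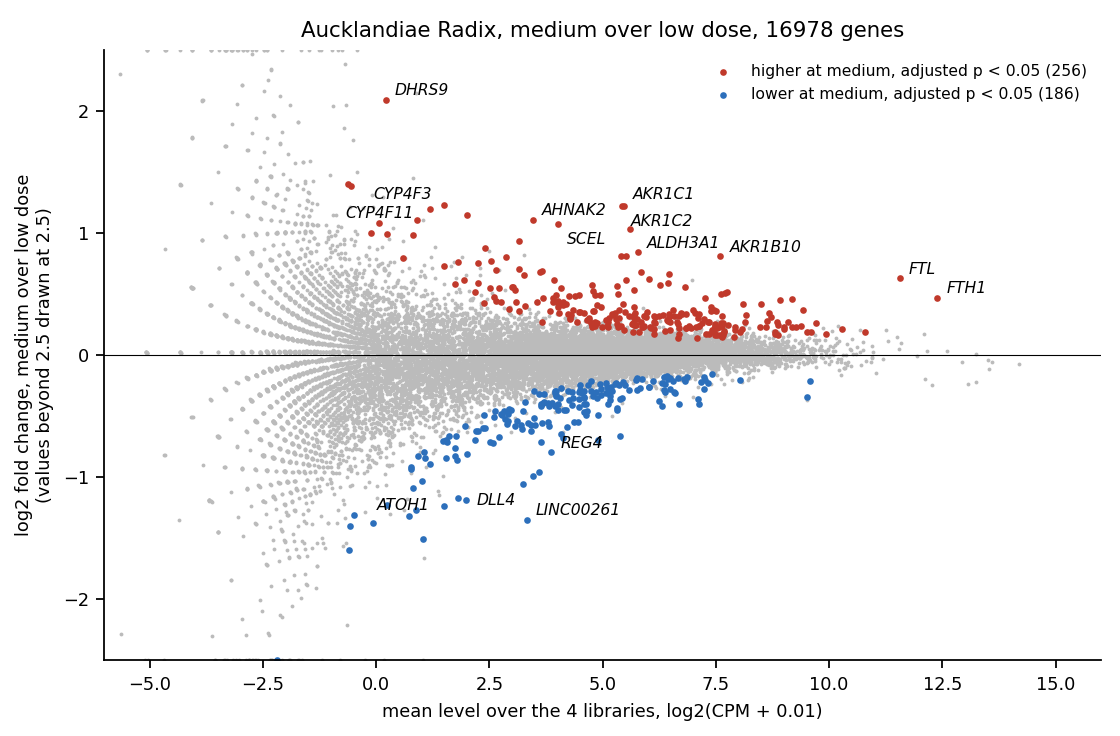
Log2 fold change of medium over low dose (y axis) against the mean level over the 4 libraries (x axis, log2 of CPM + 0.01) for 16978 genes, with called genes in red (256 higher) and blue (186 lower). The aldo-keto reductases AKR1C1, AKR1C2 and AKR1B10 and the ferritin chains FTL and FTH1 stand out among abundant genes that rose, and LINC00261 among those that fell.

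Target genes of NRF2 rose together. Of 30 such genes, all measured, 21 rose, 0 fell and 9 were not called. The median log2 fold change was 0.33, against 0 over all genes, and 29 of the 30 values were above 0. With other settings 3 of the 30 were called higher (outlying library kept in), 15 (without medium replicate 2, and likewise without low replicate 2) or 17 (without medium replicate 3, and likewise without low replicate 3), with medians between 0.32 and 0.34. To show the NRF2 recognition sequence in place, the promoters of 3 NRF2 targets that rose are given from RefSeq (GRCh38.p14). SCEL, which rose too and is outside that list, is given beside them. Each runs from 250 bases before to 50 after the start of the gene, 5′ to 3′ on the gene's strand. Capitals mark matches to TGACNNNGC, the core of the antioxidant response element, on either strand.
TXNRD1, chr12:104215529-104215828, plus strand: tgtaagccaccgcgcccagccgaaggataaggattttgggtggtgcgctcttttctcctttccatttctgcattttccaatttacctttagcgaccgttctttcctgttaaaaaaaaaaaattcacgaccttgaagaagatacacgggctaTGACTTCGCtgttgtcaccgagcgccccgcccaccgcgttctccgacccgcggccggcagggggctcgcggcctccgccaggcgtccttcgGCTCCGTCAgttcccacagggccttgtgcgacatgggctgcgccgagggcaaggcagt
GCLM, chr1:93909381-93909680, minus strand: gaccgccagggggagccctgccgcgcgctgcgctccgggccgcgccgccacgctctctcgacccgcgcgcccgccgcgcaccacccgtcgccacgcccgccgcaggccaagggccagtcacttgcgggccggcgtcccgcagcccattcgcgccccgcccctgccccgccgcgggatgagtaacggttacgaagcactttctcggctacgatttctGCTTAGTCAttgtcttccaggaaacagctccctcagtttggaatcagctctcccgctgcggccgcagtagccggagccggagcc
ME1, chr6:83431002-83431301, minus strand: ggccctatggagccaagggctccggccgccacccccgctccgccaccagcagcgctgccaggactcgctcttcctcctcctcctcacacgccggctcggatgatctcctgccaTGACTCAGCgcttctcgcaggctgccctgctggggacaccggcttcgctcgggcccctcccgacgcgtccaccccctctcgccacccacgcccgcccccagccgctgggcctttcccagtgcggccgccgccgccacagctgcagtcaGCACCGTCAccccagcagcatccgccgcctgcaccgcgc
SCEL, chr13:77535456-77535755, plus strand: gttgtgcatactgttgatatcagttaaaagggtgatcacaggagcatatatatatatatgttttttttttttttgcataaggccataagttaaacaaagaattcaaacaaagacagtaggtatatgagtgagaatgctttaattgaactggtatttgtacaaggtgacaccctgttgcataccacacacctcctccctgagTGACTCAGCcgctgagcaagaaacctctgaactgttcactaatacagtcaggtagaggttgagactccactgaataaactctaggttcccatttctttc
In ME1 and in SCEL the match TGACTCAGC also contains TGACTCA, the sequence bound by AP-1 factors. The core was found in 6 of the 20 NRF2 targets that have a promoter in the table (30%), against 15.1% of 11329 genes tested that have one and 13.6% of all 27305 promoters. Among the NRF2 targets that rose it was found in 4 of 15 (26.7%). Over all genes that rose it was found in 13.9% of promoters (27 of 194), and over all that fell in 10.3% (15 of 146). Both are near or below the share over all genes. The promoters shown were chosen because they hold the core. Promoters of LINC00261, DSEL, COLCA1 and MEX3B, which fell, hold it as well. A match is only these letters in this window, and elements farther from the start were not searched.

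Within the list, the carbonyl-reducing aldo-keto reductases AKR1C1 and AKR1C2 had the largest log2 fold changes. AKR1C1 (chr10:4963253-4983283), which reduces ketosteroids and lipid aldehydes, had 64.3 and 59.6 CPM at the medium dose, against 27.9 and 25.1 CPM at the low dose. Both medium-dose libraries lay well above both low-dose libraries, and the log2 fold change was 1.23 ± 0.10 (adjusted p = 4.90e-12). AKR1C2 (chr10:4987400-5018031), its close copy, had 62.0 and 58.4 CPM at the medium dose and 27.9 and 23.8 CPM at the low dose, a log2 fold change of 1.22 ± 0.09 (adjusted p = 1.47e-13). AKR1C3 changed by 0.66 ± 0.09 (adjusted p = 2.12e-06). RSEM can divide reads among these copies. Their sum, which such a division leaves as it is, was 241 and 220 CPM in the medium-dose libraries and 125 and 116 CPM in the low-dose libraries. AKR1B10 (chr7:134527592-134541408), an aldo-keto reductase of retinal and dietary aldehydes, had 254 and 241 CPM at the medium dose and 139 and 143 CPM at the low dose (log2 fold change 0.81 ± 0.06, adjusted p = 9.94e-14).

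The iron-storage genes were among the most abundant that rose. FTL, the ferritin light chain, had 3697 and 3694 CPM at the medium dose and 2439 and 2326 CPM at the low dose (log2 fold change 0.63 ± 0.07, adjusted p = 4.71e-09). FTH1, the heavy chain, had 6361 and 6128 CPM at the medium dose and 4445 and 4559 CPM at the low dose (log2 fold change 0.47 ± 0.07, adjusted p = 2.12e-05). Together the 2 chains took 10057 and 9822 CPM at the medium dose, against 6885 CPM in each low-dose library. HMOX1, the haem oxygenase that releases iron and a widely used NRF2 marker, was not called, with 12.8 and 12.7 CPM at the medium dose and 11.1 and 12.1 CPM at the low dose (log2 fold change 0.13 ± 0.09, adjusted p = 0.682).

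Genes of glutathione and thioredoxin chemistry were also among the members that rose. GCLC and GCLM, the catalytic and modifier subunits of glutamate-cysteine ligase, changed by 0.34 ± 0.06 and 0.32 ± 0.08 on the log2 scale (adjusted p = 8.02e-05 and 0.0136). SLC7A11, the cystine importer, had 253 and 251 CPM at the medium dose and 179 and 173 CPM at the low dose (log2 fold change 0.52 ± 0.14, adjusted p = 0.0225). GSR, glutathione reductase, changed by 0.33 ± 0.05 (adjusted p = 2.46e-06), TXN, thioredoxin, by 0.42 ± 0.07 (adjusted p = 2.47e-04), and SRXN1, sulfiredoxin, by 0.32 ± 0.05 (adjusted p = 1.02e-04). TXNRD1, thioredoxin reductase, had 466 and 463 CPM at the medium dose and 375 and 371 CPM at the low dose, a tight pair on each side (log2 fold change 0.32 ± 0.05, adjusted p = 2.41e-05). PRDX1, a peroxiredoxin, was not called (0.15 ± 0.06, adjusted p = 0.207). The calls of GCLM and SLC7A11 were lost on leaving out any 1 of the 4 libraries (adjusted p from 0.0944 to 0.133 for GCLM and from 0.129 to 0.201 for SLC7A11).

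Enzymes of the pentose phosphate pathway and of NADPH supply were among the members that rose. PGD, an NADPH-forming enzyme of the pentose phosphate pathway, changed by 0.27 ± 0.04 (adjusted p = 2.03e-05), ME1, malic enzyme, by 0.22 ± 0.05 (adjusted p = 0.0136) and TKT, transketolase, by 0.24 ± 0.06 (adjusted p = 0.00932). TALDO1, transaldolase, was not called (0.18 ± 0.06, adjusted p = 0.138). NQO1, the quinone reductase, had 781 and 778 CPM at the medium dose and 603 and 603 CPM at the low dose, with replicates close together (log2 fold change 0.37 ± 0.05, adjusted p = 3.14e-07). EPHX1, microsomal epoxide hydrolase, changed by 0.47 ± 0.06 (adjusted p = 6.63e-07). ABCC2, an efflux pump of glutathione conjugates, had 2.49 and 2.58 CPM at the medium dose and 1.18 and 1.17 CPM at the low dose (log2 fold change 1.11 ± 0.32, adjusted p = 0.0454). SQSTM1, the autophagy receptor p62, changed by 0.28 ± 0.05 (adjusted p = 3.33e-04) and TRIM16L by 0.35 ± 0.08 (adjusted p = 0.00584). Without 1 of the 4 libraries the call was lost in 4 of 4 fits for ABCC2 (adjusted p from 0.202 to 0.276), in 3 for ME1 (0.0809 to 0.231, all but medium replicate 3) and for TKT (0.0678 to 0.193, all but low replicate 3), and in 2 for TRIM16L (0.0868 to 0.118, replicate 2 of either dose). The members not called besides HMOX1, PRDX1 and TALDO1 were PIR, ABCC3, UGDH, OSGIN1, CBR1 and SLC6A6, whose log2 fold changes lay between -0.19 for SLC6A6 and 0.24 for OSGIN1.

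**Figure D2:**
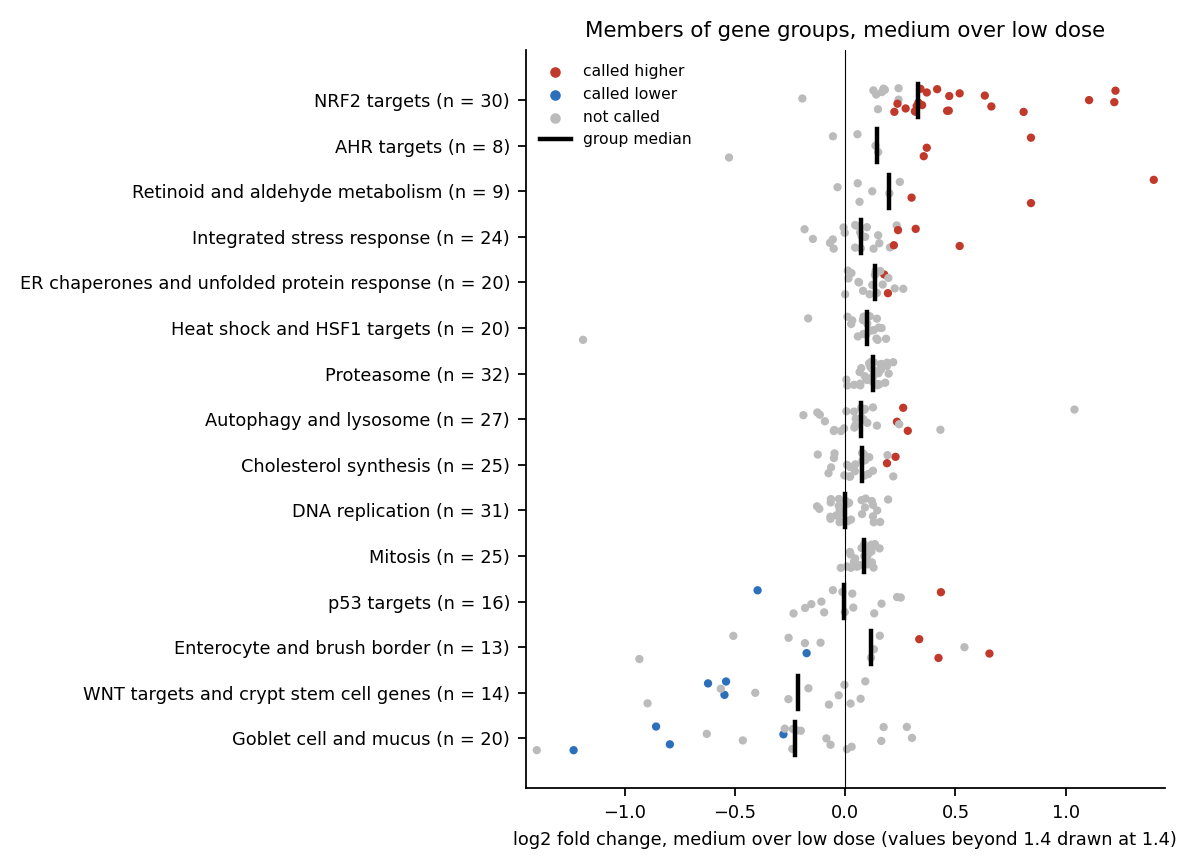
Log2 fold changes of medium over low dose for the measured members of 15 gene groups, 1 point a gene, in red where called higher, blue where called lower and grey where not called, with the group median as a black bar. The NRF2 targets hold 21 red points of 30, while the groups of heat shock, proteasome, DNA replication and mitosis genes hold none.

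Other detoxifying enzymes rose alongside. ALDH3A1 (chr17:19737984-19748943), an aldehyde dehydrogenase and a known target of the aryl hydrocarbon receptor AHR, had 70.6 and 70.3 CPM at the medium dose and 40.1 and 38.5 CPM at the low dose. The 2 libraries of each dose lay close together, with the lowest adjusted p of all 16978 genes (log2 fold change 0.84 ± 0.05, adjusted p = 3.51e-16). Of 8 measured AHR targets 3 rose and 0 fell: ALDH3A1, NQO1 and the glucuronosyltransferase UGT1A6 (68.6 and 72.6 CPM at the medium dose and 55.3 and 55.0 CPM at the low dose, log2 fold change 0.36 ± 0.08, adjusted p = 0.00246, and 0.0848 without medium replicate 3). CYP1A1, the classical AHR target, was not called, with 0.322 and 0.436 CPM at the medium dose and 0.651 and 0.453 CPM at the low dose, and neither were CYP1B1 (-0.06 ± 0.06), AHRR (0.14 ± 0.12) and TIPARP (0.06 ± 0.07). UGT1A6 shares exons with other UGT1A transcripts, and ALDH3A1 and NQO1 also stand among genes known to answer NRF2 or retinoid signals, so the list cannot tell these inputs apart.

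The fatty acid hydroxylases CYP4F3 and CYP4F11, close copies on chromosome 19, rose from low levels. CYP4F3, which inactivates leukotriene B4, had 4.34 and 3.57 CPM at the medium dose and 1.75 and 1.62 CPM at the low dose (log2 fold change 1.23 ± 0.22, adjusted p = 1.83e-04). CYP4F11 averaged 3.16 ± 0.315 CPM at the medium dose and 1.38 ± 0.182 CPM at the low dose (SD, n = 2 each; log2 fold change 1.20 ± 0.24, adjusted p = 9.59e-04, and 0.0559 without low replicate 3). Their sum was 7.72 and 6.50 CPM at the medium dose, against 3.25 and 2.87 CPM at the low dose. CYP24A1, the hydroxylase that inactivates vitamin D, had 5.47 and 5.59 CPM at the medium dose and 2.52 and 2.46 CPM at the low dose (log2 fold change 1.15 ± 0.23, adjusted p = 9.07e-04). Among 9 measured genes of retinoid and aldehyde metabolism 3 rose and 0 fell: ALDH3A1, DHRS9 and DHRS3. DHRS9, a retinol dehydrogenase, had 2.21 and 1.51 CPM at the medium dose and 0.529 and 0.340 CPM at the low dose (log2 fold change 2.09 ± 0.34, adjusted p = 6.59e-05). DHRS3, which reduces retinal, changed by 0.30 ± 0.08 (adjusted p = 0.0222), and lost its call without medium replicate 2, low replicate 2 or medium replicate 3 (adjusted p from 0.121 to 0.382). ABCG2, an efflux pump of the apical membrane, had 105 and 108 CPM at the medium dose and 86.4 and 83.4 CPM at the low dose (log2 fold change 0.32 ± 0.04, adjusted p = 3.20e-07). Of 8 measured efflux pumps it and ABCC2 rose and 0 fell, and the same 2 were the called members among 6 measured targets of the xenobiotic receptors PXR and CAR.

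The remaining genes among the 12 largest rises have varied roles. AHNAK2 (chr14:104937244-104978357), a giant scaffold protein, had 16.4 and 13.8 CPM at the medium dose and 5.53 and 8.35 CPM at the low dose (log2 fold change 1.11 ± 0.14, adjusted p = 2.39e-07). SCEL (sciellin, a cornified envelope precursor), whose promoter is given above, had 21.6 and 22.2 CPM at the medium dose and 10.4 and 10.3 CPM at the low dose (log2 fold change 1.08 ± 0.11, adjusted p = 1.58e-09). SDCBP2, a PDZ scaffold also called syntenin-2, had 12.7 and 10.5 CPM at the medium dose and 6.34 and 5.82 CPM at the low dose (0.93 ± 0.13, adjusted p = 5.95e-06). EMP1, an epithelial membrane protein, had 59.1 and 58.1 CPM at the medium dose and 34.1 and 32.5 CPM at the low dose (0.82 ± 0.07, adjusted p = 3.38e-12). ADAM19, a membrane metalloprotease, had 56.3 and 51.4 CPM at the medium dose and 29.6 and 31.7 CPM at the low dose (0.81 ± 0.08, adjusted p = 3.04e-10). DUSP5, a nuclear phosphatase of ERK, had 7.20 and 6.38 CPM at the medium dose and 3.70 and 3.70 CPM at the low dose (0.87 ± 0.14, adjusted p = 4.72e-05). Of 13 measured genes of the squamous envelope and keratins SCEL and KRT80 (0.25 ± 0.06, adjusted p = 0.0141, and 0.119 to 0.327 in the 3 fits without 1 library that lost it) rose and 0 fell. Of 20 measured genes of MAPK output only DUSP5 and EPHA2 (0.20 ± 0.05, adjusted p = 0.0268) rose and 0 fell, and EPHA2 lost its call without medium replicate 2, low replicate 2 or medium replicate 3 (adjusted p from 0.0979 to 0.501).

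Some genes of the secretory lineage fell. Of 20 measured goblet cell and mucus genes 4 fell, 0 rose and 16 were not called, with a median log2 fold change of -0.23 against 0 over all genes. With the outlying library kept in the fit 1 of the 20 was called lower. ATOH1 (chr4:93828753-93830964), the transcription factor of the secretory fate, had 1.89 and 1.47 CPM at the medium dose and 3.62 and 4.27 CPM at the low dose (log2 fold change -1.23 ± 0.19, adjusted p = 2.16e-05). REG4, a lectin of secretory cells, had 10.9 and 10.4 CPM at the medium dose and 18.4 and 18.6 CPM at the low dose (-0.80 ± 0.09, adjusted p = 1.28e-07). TFF3, the goblet cell trefoil peptide, had 2.25 and 2.62 CPM at the medium dose and 4.15 and 4.68 CPM at the low dose (-0.86 ± 0.13, adjusted p = 3.11e-05). MUC13, a membrane mucin, changed by -0.28 ± 0.06 (adjusted p = 0.00611), and lost its call without medium replicate 2, low replicate 2 or medium replicate 3 (adjusted p from 0.0599 to 0.168). MUC2, the main secreted mucin of the colon, was not called, with 14.9 and 12.4 CPM at the medium dose and 24.4 and 17.9 CPM at the low dose (-0.63 ± 0.26, adjusted p = 0.277). Neither was SPDEF, a later goblet cell factor (0.16 ± 0.08, adjusted p = 0.393). HEPACAM2, an adhesion molecule of secretory cells, had 1.17 and 1.47 CPM at the medium dose and 2.72 and 2.68 CPM at the low dose (-1.03 ± 0.24, adjusted p = 0.00755). It was called without medium replicate 3 but not without any 1 of the other libraries (adjusted p from 0.0591 to 0.211).

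The Notch ligand DLL4 fell as well, with 2.41 and 2.38 CPM at the medium dose and 5.41 and 5.51 CPM at the low dose (log2 fold change -1.19 ± 0.16, adjusted p = 1.92e-06). Its replicates nearly coincided on each side. NEURL1, a ubiquitin ligase of Notch ligands, had 1.65 and 2.54 CPM at the medium dose and 3.50 and 4.00 CPM at the low dose (-0.84 ± 0.19, adjusted p = 0.00496). It lost its call without medium replicate 2 or low replicate 3 (adjusted p from 0.122 to 0.332). Among 14 measured WNT target and crypt stem cell genes 3 fell, 0 rose and 11 were not called, with a median of -0.21. With the outlying library kept in the fit 1 of the 14 was called lower. EPHB3, a receptor that positions crypt cells, had 15.7 and 18.0 CPM at the medium dose and 24.8 and 24.4 CPM at the low dose (-0.55 ± 0.09, adjusted p = 7.10e-05). EPHB2, its relative, changed by -0.62 ± 0.17 (adjusted p = 0.0318, and 0.0656 to 0.385 without 1 of the 4 libraries) and SP5, a transcription factor induced by WNT, by -0.54 ± 0.11 (adjusted p = 0.00213, and 0.0609 without medium replicate 3). AXIN2, the most used WNT reporter gene, had 81.7 and 85.9 CPM at the medium dose and 82.9 and 85.2 CPM at the low dose and was not called, nor were MYC (0.09 ± 0.07) and the stem cell receptor LGR5 (-0.26 ± 0.08, adjusted p = 0.0725). Of 13 measured enterocyte genes KRT20 (0.42 ± 0.06, adjusted p = 1.98e-06), CEACAM5 (0.65 ± 0.10, adjusted p = 4.17e-05) and CDHR5 (0.34 ± 0.09, adjusted p = 0.0359, and 0.131 to 0.338 without 1 of the 4 libraries) rose. VIL1, villin of the brush border, fell (-0.18 ± 0.04, adjusted p = 0.00501, and 0.119 to 0.157 without replicate 2 of either dose).

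Outside these lineage genes, the lowest adjusted p of any fall was that of LINC00261 (chr20:22547671-22578642), a long noncoding RNA beside FOXA2. It had 5.63 and 5.71 CPM at the medium dose and 15.2 and 13.6 CPM at the low dose (log2 fold change -1.35 ± 0.10, adjusted p = 4.83e-13). SLC38A11, a member of an amino acid transporter family, had 5.99 and 6.34 CPM at the medium dose and 12.9 and 12.8 CPM at the low dose (-1.06 ± 0.14, adjusted p = 1.14e-06). The vehicle libraries had 15.9, 15.8 and 15.2 CPM for LINC00261 and 11.5, 11.9 and 12.1 CPM for SLC38A11. RASL11A, a small GTPase, had 7.60 and 7.18 CPM at the medium dose and 15.5 and 13.9 CPM at the low dose (-0.99 ± 0.10, adjusted p = 1.89e-09). CD200, an immune-inhibitory surface protein, had 1.93 and 2.38 CPM at the medium dose and 4.76 and 4.95 CPM at the low dose (-1.17 ± 0.22, adjusted p = 4.77e-04). DSEL (-0.89 ± 0.22, adjusted p = 0.0142) and LARGE2 (-0.84 ± 0.23, adjusted p = 0.0294), which modify glycans, and C7orf25 (-1.51 ± 0.35, adjusted p = 0.00866) complete the largest falls. Each of these 3 lost its call in at least 3 of the 4 fits that left out a library, with adjusted p up to 0.323 for DSEL, 0.501 for LARGE2 and 0.141 for C7orf25. C7orf25 overlaps PSMA2, so that reads can be shared between them.

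Several stress and growth programs held few called genes or none. Of 20 measured heat shock genes 0 were called by edgeR or by DESeq2, with 6 higher and 0 lower at an unadjusted p under 0.05, and HSPA1A had 243 and 268 CPM at the medium dose and 236 and 239.9 CPM at the low dose. Of 32 proteasome genes 0 were called by edgeR and 2 by DESeq2 as higher. All 32 had a log2 fold change above 0 (median 0.13) and 19 had an unadjusted p under 0.05. With only the 4 compared libraries in the fit, edgeR called 21 of the 32 higher and 0 lower. That fit called 1328 of 15212 genes in all. It called 8 of 19 heat shock genes higher and 1 lower, and 10 of 20 endoplasmic reticulum chaperone genes higher and 0 lower. Of 24 measured genes of the integrated stress response 4 rose and 0 fell: SLC7A11, ASNS (0.32 ± 0.06, adjusted p = 1.40e-04), TRIB3 (0.24 ± 0.06, adjusted p = 0.0212) and SLC3A2 (0.22 ± 0.06, adjusted p = 0.0328), of which ASNS alone kept its call without each of the 4 libraries in turn. DDIT3, the pro-apoptotic factor CHOP, was not called (0.20 ± 0.17, adjusted p = 0.734). Of 20 endoplasmic reticulum chaperone and unfolded protein response genes HSPA5 (0.19 ± 0.05, adjusted p = 0.0290) and CANX (0.18 ± 0.04, adjusted p = 0.0172) rose and 0 fell. The calls of SLC7A11, SLC3A2, HSPA5 and CANX were lost without any 1 of the 4 libraries and that of TRIB3 without 3 of them, with adjusted p up to 0.266 for SLC3A2, 0.378 for HSPA5, 0.163 for CANX and 0.329 for TRIB3.

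Of 31 DNA replication genes 0 were called by edgeR (2 higher by DESeq2, 5 higher and 0 lower at an unadjusted p under 0.05), with a median of 0.00. Of 25 mitosis genes 0 by either tool (4 higher and 0 lower at an unadjusted p under 0.05), with a median of 0.09. In the high-dose libraries against the vehicle, 29 of the same 31 replication genes and all 25 mitosis genes were called lower, with medians of -0.92 and -0.94. Of 16 p53 targets CDKN1A, the cell cycle inhibitor p21, rose (0.43 ± 0.10, adjusted p = 0.00743) and SESN1 fell (-0.40 ± 0.07, adjusted p = 4.00e-04). CDKN1A lost its call without medium replicate 2, low replicate 2 or medium replicate 3 (adjusted p from 0.0581 to 0.185). Of 14 NF-kB genes BIRC3, an inhibitor of apoptosis, rose (0.69 ± 0.15, adjusted p = 0.00493, and 0.129 to 0.157 without replicate 2 of either dose) and 0 fell. Of 25 cholesterol synthesis genes SQLE (0.19 ± 0.03, adjusted p = 3.57e-04) and CYP51A1 (0.23 ± 0.05, adjusted p = 0.00144) rose and 0 fell, CYP51A1 with 0.0521 without medium replicate 3. Of 10 fatty acid synthesis genes ME1 rose and 0 fell. Of 27 lysosome and autophagy genes SQSTM1, CTSD (0.26 ± 0.06) and GLA (0.23 ± 0.06) rose and 0 fell. Of 22 hypoxia and glycolysis genes the glucose transporter SLC2A1 (0.23 ± 0.04) and PFKP (0.30 ± 0.05) rose and CA9 (-0.40 ± 0.08) fell. CTSD and CA9 lost their call in 2 fits without 1 of the 4 libraries and GLA in 3 (adjusted p up to 0.158, 0.0662 and 0.511). Of 23 interferon response genes, 5 metallothionein and zinc genes, 24 ribosome biogenesis genes, 29 ribosomal protein genes, 11 tubulins and 13 mitochondrial transcripts, 0 were called by edgeR or by DESeq2. At an unadjusted p under 0.05 these held 3 lower interferon genes and 4 higher tubulins. Without a low-count filter edgeR called 4 of the 13 mitochondrial transcripts and 1 of the 23 interferon genes lower. With only the 4 compared libraries in the fit it called 4 tubulins and 4 mitosis genes higher. In that fit 3 mitochondrial transcripts, 2 interferon genes, 2 ribosomal protein genes and 1 metallothionein or zinc gene were lower. Of the DNA replication genes 3 were higher and 1 lower there. A p that misses the threshold does not show that a gene was unchanged.

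The high dose and the vehicle allow the same genes to be read in libraries that do not enter the comparison, though the vehicle libraries carry another set number than the extract libraries. High minus vehicle called 10530 genes (62.0%), 5261 higher (31.0%) and 5269 lower (31.0%), so calls there are common (6775 with the outlying library kept in the fit). Of the 256 genes that rose between low and medium dose 239 were also called higher at the high dose against the vehicle, 8 lower and 9 not at all. Of the 186 that fell 168 were called lower, 6 higher and 12 not at all. The 407 shared calls are 92.1% of the 442 genes and 3.87% of the 10530. The median log2 fold change of high minus vehicle was 1.26 among the 256 genes and -1.63 among the 186, against -0.02 over all genes. Among the NRF2 targets 28 of 30 were called higher there and 0 lower, with a median of 1.42, and among the goblet genes 13 of 20 lower and 2 higher, with a median of -1.43.

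The 14 genes called in opposite directions include UGT1A6 and ABCG2, and also CA12, PCSK5, MYRFL and NNMT among those that rose at the medium dose and FOXO3, NPFFR1, STX3, MEX3B, ZBED10P and RASSF10 among those that fell, and 1 gene without a symbol that rose. They are named here after their values were seen. UGT1A6 averaged 45.7 ± 2.69 CPM with the vehicle, 55.2 ± 0.185 CPM at the low, 70.6 ± 2.85 CPM at the medium and 29.4 ± 1.27 CPM at the high dose (SD, n = 3, 2, 2 and 2). ABCG2 averaged 63.9 ± 0.540, 84.9 ± 2.18, 106 ± 2.28 and 44.7 ± 0.912 CPM in the same order. Both were called lower at the high dose than with the vehicle, with log2 fold changes of -0.64 ± 0.07 (adjusted p = 4.90e-10) and -0.51 ± 0.04 (adjusted p = 2.01e-15). ALDH3A1 averaged 29.6 ± 0.933, 39.3 ± 1.10, 70.5 ± 0.227 and 32.7 ± 1.67 CPM in the same order, and at the high dose lay just above the vehicle (log2 fold change 0.15 ± 0.05, adjusted p = 0.00645). In all 3 genes the medium-dose libraries were the highest of the 9. Of the aldo-keto reductases AKR1B10 averaged 111 ± 1.49, 141 ± 2.65, 247 ± 9.47 and 225 ± 4.33 CPM, and the summed AKR1C genes lay at 79.5 to 88.2 CPM with the vehicle, 125 and 116 CPM at the low, 241 and 220 CPM at the medium and 425 and 401 CPM at the high dose.

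**Figure D3:**
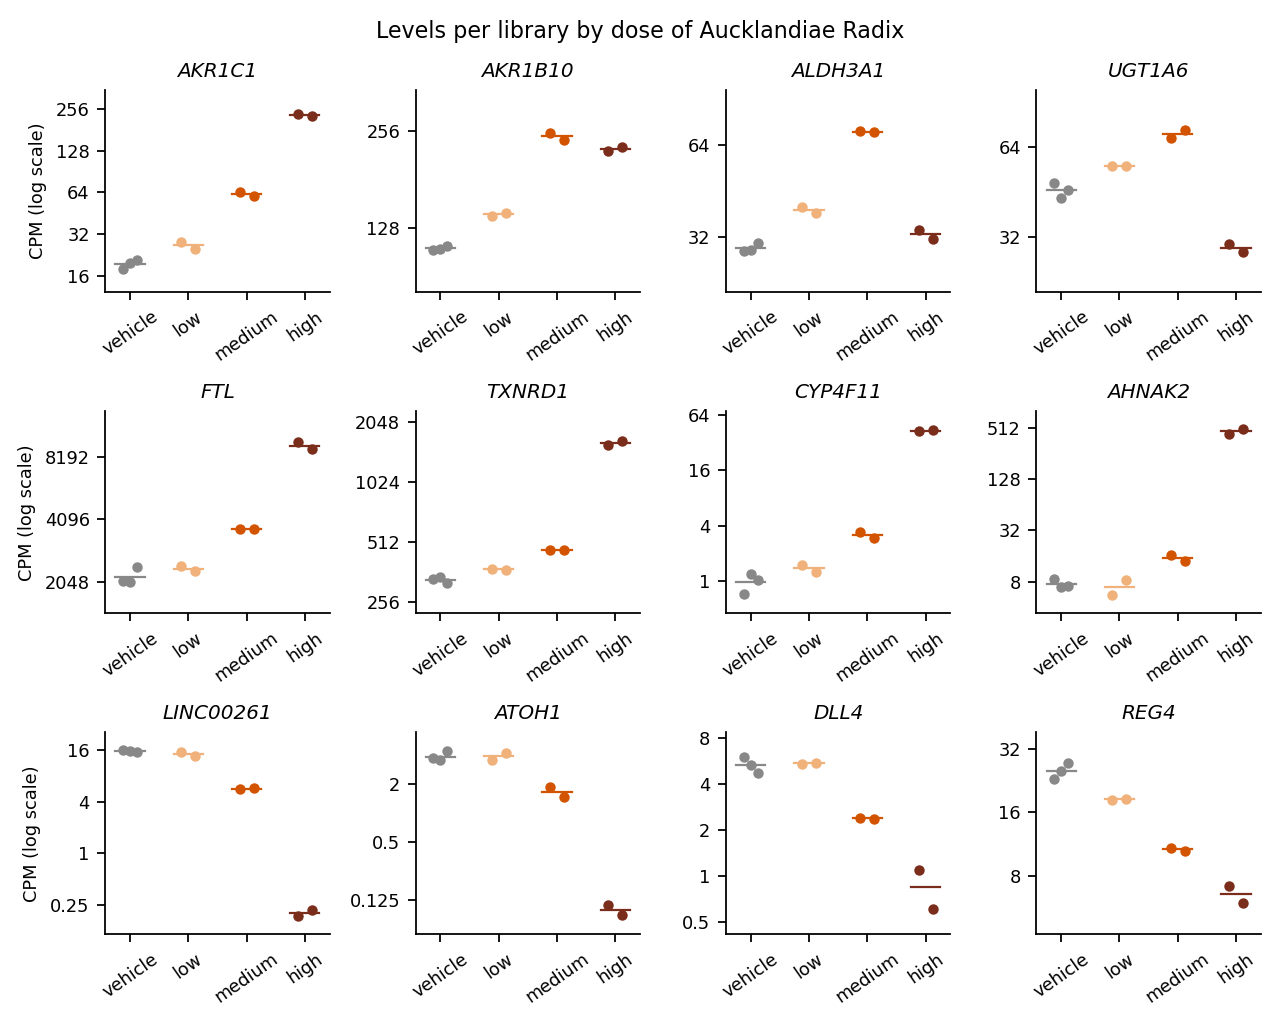
CPM in each library (points, log axis) with the group mean (bar) for 12 genes in the vehicle (3 libraries, of another set) and at the low, medium and high dose of Aucklandiae Radix (2 libraries each). ALDH3A1 and UGT1A6 are highest at the medium dose, FTL, TXNRD1, CYP4F11 and AHNAK2 are highest at the high dose, and LINC00261 and ATOH1 are lowest there.

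Since the doses are spaced 5-fold, the step from low to medium can be set against the step from medium to high in 1 test, the first step minus the second. That difference was called for 5583 genes (32.9%), and for 2021 with the outlying library kept in the fit. Of the 442 genes above, it was called with the sign of the first step in 50 and the opposite sign in 287. It was not called in 105. Among the 256 genes that rose, 29 had the same sign and 175 the opposite. The opposite sign means a larger second step in the same direction. The difference shares the medium-dose and low-dose libraries with the comparison above, so both steps are given side by side as log2 fold changes. AHNAK2 had 1.11 in the first step and 4.96 ± 0.11 in the second (difference -3.85 ± 0.22, adjusted p = 2.02e-18). SDCBP2 had 0.93 and then 4.02 ± 0.11 (difference -3.08 ± 0.21). LOXL4, a lysyl oxidase, had 0.35 and then 3.35 ± 0.08 (difference -3.0 with a standard error of 0.14) and the growth factor gene PDGFB 0.44 and then 3.23 ± 0.10 (difference -2.80 ± 0.19). In these 4 genes the second step was the larger. Among genes with negative steps HEPACAM2 had -1.03 and then -5.73 ± 0.59 (difference 4.70 ± 0.81), its high-dose libraries being at 0 and 0.0434 CPM. ADAMTS6, a secreted protease, had -0.49 and then -4.53 ± 0.15 (difference 4.04 ± 0.22), COLCA1 -0.55 and then -4.52 ± 0.16 (difference 3.97 ± 0.22), NOX1, the colonic NADPH oxidase, -0.58 and then -4.33 ± 0.18 (difference 3.74 ± 0.26) and NEURL1 -0.84 and then -4.33 ± 0.38 (difference 3.49 ± 0.52). C7orf25 had steps of opposite sign, -1.51 and then 1.39 ± 0.36 (difference -2.90 ± 0.64, adjusted p = 3.46e-04). LOXL4 lost its call in the first step without replicate 2 of either dose and PDGFB without any 1 of the 4 libraries (adjusted p up to 0.153 and 0.203).

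In some of the other genes that rose in the first step the second was near 0 or negative. The step difference was in the direction of the first step for ALDH3A1 (1.95 ± 0.08, adjusted p = 4.26e-22), AKR1C2 (1.46 ± 0.14, adjusted p = 3.86e-11), AKR1B10 (0.94 ± 0.10, adjusted p = 7.70e-11) and CYP24A1 (1.16 ± 0.37, adjusted p = 0.0113). The second step was -1.11 ± 0.05 for ALDH3A1, larger in size than the first and of opposite sign, -0.24 ± 0.08 for AKR1C2, -0.14 ± 0.06 for AKR1B10 and -0.01 ± 0.20 for CYP24A1. Reads of AKR1C2 can be divided with its copies. The summed AKR1C genes lay at 241 and 220 CPM at the medium and 425 and 401 CPM at the high dose. The difference was not called for NQO1 (0.07 ± 0.08, adjusted p = 0.519), EPHX1 (0.19 ± 0.10, adjusted p = 0.168), REG4 (-0.09 ± 0.18, adjusted p = 0.740), TFF3 (0.30 ± 0.26, adjusted p = 0.553) and DLL4 (0.27 ± 0.33, adjusted p = 0.615), whose 2 steps had the same sign.

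Guibi-tang, a classical formula that contains Aucklandiae Radix and Polygalae Radix among its herbs, offers further libraries, none shared with the comparison. Its high dose against its low dose called 3042 genes (17.9%), 1501 higher (8.84%) and 1541 lower (9.08%), and 797 with the outlying library kept in the fit. Of the 256 genes that rose with Aucklandiae Radix 234 were called higher with Guibi-tang, and of the 186 that fell 177 were called lower. The 411 shared calls are 93.0% of the 442 genes and 13.5% of the 3042. The one gene called in the opposite direction was SQLE, which changed by -0.13 ± 0.03 with Guibi-tang (adjusted p = 6.06e-04), and 30 of the 442 were not called. Of the 30 NRF2 targets 29 were called higher with Guibi-tang and 0 lower, with a median of 0.75. AKR1C1 averaged 93.3 ± 7.02 CPM at the high and 20.7 ± 2.11 CPM at the low dose of Guibi-tang (SD, n = 3 each), ALDH3A1 98.4 ± 0.291 and 30.0 ± 0.959 CPM, LINC00261 3.53 ± 0.267 and 14.7 ± 0.969 CPM, and ATOH1 0.970 ± 0.204 and 4.83 ± 0.131 CPM. The doses differ, 25-fold between the Guibi-tang groups against 5-fold here, so the sizes are not compared. The 5-fold step of Guibi-tang, medium minus low, called 20 genes (0.118%), of which 16 were among the 442 with the same sign, 0 with the opposite sign, and 426 of the 442 were not called. High minus low with the other extracts shares no library with the comparison either. Polygalae Radix called 4984 genes (29.4%), and 195 of the 442 had the same sign and 82 the opposite (18.6% of the 442). Menthae Herba called 3994 genes (23.5%), and 320 of the 442 had the same sign and 9 the opposite. Soyo-san called 422 (2.49%), with 128 and 4, Saengmaek-san 145 (0.854%), with 63 and 1, and Saposhnikoviae Radix 49 (0.289%), with 24 and 1.

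**Figure D4:**
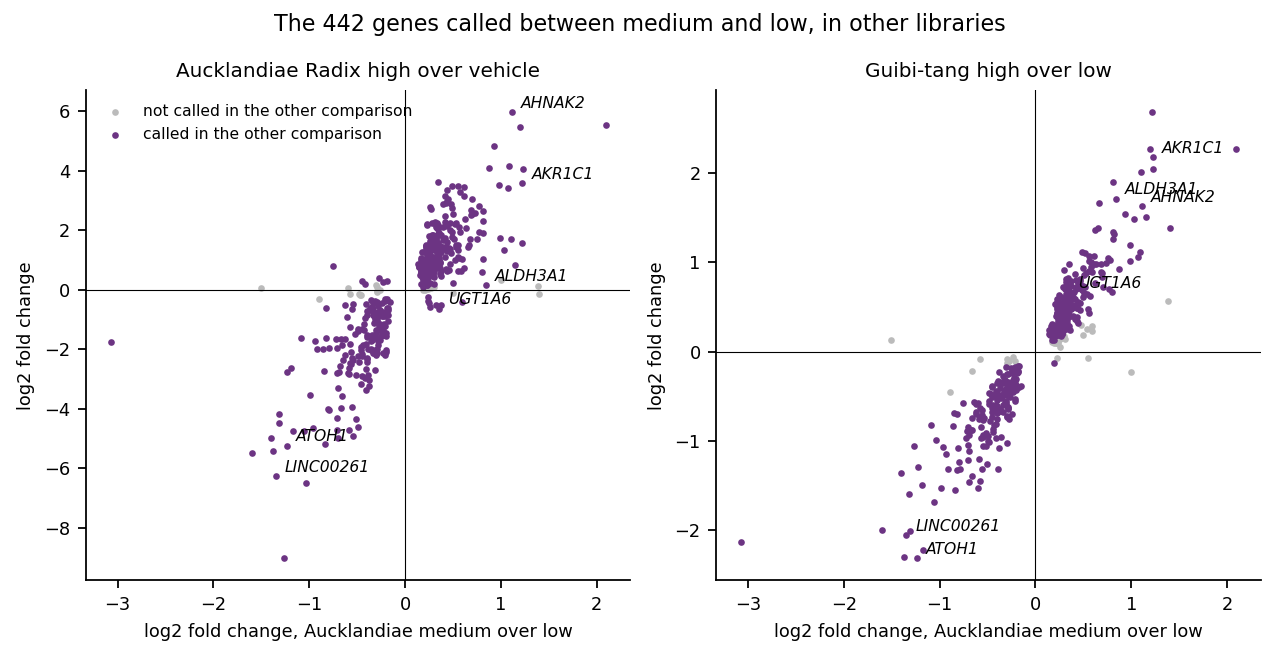
Log2 fold changes of the 442 genes called between medium and low dose of Aucklandiae Radix (x axis) in high minus vehicle (left, y axis) and in Guibi-tang high minus low (right, y axis), in purple where the gene was also called there. On the left 407 and on the right 411 genes are called with the same sign, against 14 on the left and 1 on the right called with opposite signs.

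Polygalae Radix, the other herb of the same library set, was given at nearly the same doses (76 and 15.2 µg/mL) and allows a direct test of the difference between the extracts. Its medium minus low step called 840 genes (4.95%), and of the 442 genes called with Aucklandiae Radix 65 were called with the same sign, 28 with the opposite sign and 349 not at all. Of the 30 NRF2 targets 6 rose and 3 fell with Polygalae Radix, with a median of 0.01. The difference between the 2 steps was called for 507 genes (2.99%), 244 higher and 263 lower for Aucklandiae Radix. It was called for 40 with the outlying library kept in the fit, and for 302 without medium replicate 2, 304 without low replicate 2, 291 without medium replicate 3 and 302 without low replicate 3 of Aucklandiae Radix, 275 without Polygalae Radix medium replicate 2 and 290 without its low replicate 3. AKR1C1 averaged 19.7 ± 2.14 CPM at the medium and 19.6 ± 1.29 CPM at the low dose of Polygalae Radix (SD, n = 2 each), and its step differed from that with Aucklandiae Radix by 1.21 ± 0.15 (adjusted p = 4.69e-07). The differences were 1.11 ± 0.14 for AKR1C2 (adjusted p = 3.20e-07), 1.05 ± 0.08 for ALDH3A1 (adjusted p = 4.27e-13) and 1.62 ± 0.37 for CYP4F3 (adjusted p = 0.00632). ITGB7, the integrin beta 7 chain, had 9.25 and 9.28 CPM at the medium and 5.20 and 5.36 CPM at the low dose of Aucklandiae Radix, and a difference of 1.12 ± 0.20 (adjusted p = 2.48e-04). NQO1 (0.57 ± 0.06, adjusted p = 6.31e-08) and SCEL (1.02 ± 0.16, adjusted p = 4.28e-05) also differed, higher with Aucklandiae Radix.

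Among the genes that fell, LINC00261 averaged 15.7 ± 0.417 CPM at the medium and 16.6 ± 1.32 CPM at the low dose of Polygalae Radix, and the steps differed by -1.27 ± 0.13 (adjusted p = 9.24e-09). The steps also differed for ATOH1 (-0.92 ± 0.25, adjusted p = 0.0309), CD200 (-1.07 ± 0.29, adjusted p = 0.0327) and DSEL (-1.06 ± 0.31, adjusted p = 0.0455). SLC6A20, a transporter of proline, fell with Aucklandiae Radix (-0.60 ± 0.13, adjusted p = 0.00261) and rose with Polygalae Radix (0.84 ± 0.11, adjusted p = 6.16e-07), a difference of -1.43 ± 0.17 (adjusted p = 9.34e-08). RASSF10 also had opposite signs, -0.45 with Aucklandiae Radix and 0.54 with Polygalae Radix, a difference of -0.99 ± 0.17 (adjusted p = 1.84e-04). SLC6A20 lost its call between medium and low dose without low replicate 2 or medium replicate 3 (adjusted p from 0.0652 to 0.105), and RASSF10 without any 1 of the 4 libraries (0.151 to 0.350).

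Some genes rose with both extracts. FTL rose by 0.63 ± 0.07 with Aucklandiae Radix and by 0.51 ± 0.07 with Polygalae Radix, a difference of 0.13 ± 0.09 (adjusted p = 0.613). FTH1 rose by 0.47 ± 0.07 and 0.75 ± 0.07, a difference of -0.28 ± 0.10 (adjusted p = 0.159). DUSP5 rose by 0.87 ± 0.14 and 0.82 ± 0.14, a difference of 0.05 ± 0.20 (adjusted p = 0.960). These differences missed the threshold, which does not show that the extracts act alike. SQSTM1 rose by 0.28 ± 0.05 with Aucklandiae Radix and by 1.01 ± 0.05 with Polygalae Radix, a difference of -0.73 ± 0.07 (adjusted p = 2.38e-09). HMOX1 was called with Polygalae Radix (0.65 ± 0.09, adjusted p = 6.06e-06) and not with Aucklandiae Radix, and the difference was -0.52 ± 0.13 (adjusted p = 0.0171).

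**Figure D5:**
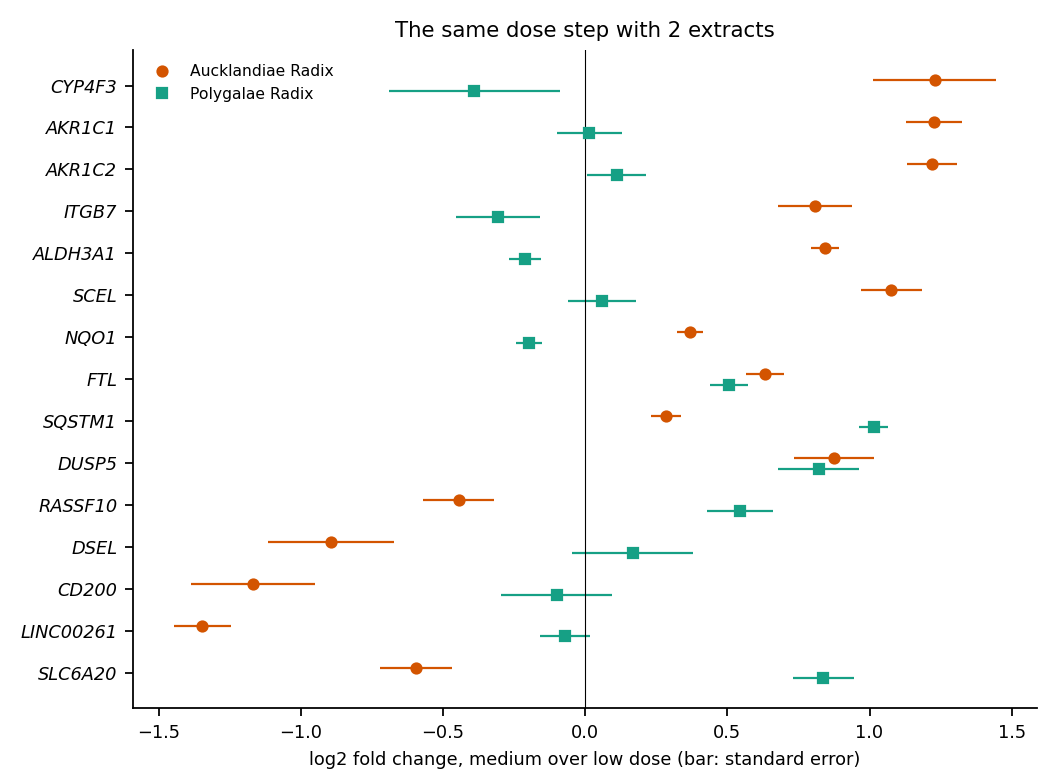
Log2 fold change of medium over low dose with its standard error for 15 genes with Aucklandiae Radix (orange circles) and Polygalae Radix (green squares). AKR1C1, AKR1C2 and ALDH3A1 were higher with Aucklandiae Radix and differed between the extracts, FTL and DUSP5 rose with both, SQSTM1 rose more with Polygalae Radix, and SLC6A20 and RASSF10 moved in opposite directions.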

How the data were processed

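Directional mRNA libraries of HT29 cells were sequenced, with 24749056 to 26397406 counts in each of the 4 compared. The deposited values are expected counts per gene, with Ensembl identifiers; per the submitters' processing notes they were made with FastQC 0.11.9, Trim Galore 0.6.5, STAR 2.7.3a and RSEM 1.3.3 on GRCh38. Neither annotation release nor strand setting is stated there, so antisense genes and close copies are uncertain. Of the deposited expected counts 10.0% were not whole; all were rounded. Symbols came from GENCODE 29, which held 57055 of the 60675 genes. edgeR 4.0.16 (R 4.3.3) fitted 56 libraries in 22 groups, with filterByExpr, TMM factors and the quasi-likelihood F-test (34 residual degrees of freedom); p-values were adjusted over the 16978 genes kept. DESeq2 1.42.0 was an alternative. The test was checked on simulated data drawn with the same spread for every gene and library. That check does not cover spread that differs between genes or libraries.

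The 12 largest rises and falls among called, named genes with non-overlapping libraries and a mean of at least 2 CPM are named, with the 5 largest differences in each direction between steps or extracts and members of gene lists; any other name was chosen after its values were seen. Members and lists were chosen with earlier results of these data known. The replicate numbers do not pair the samples (2 pairs). Alternatives were other sets of libraries, scalings, filters, a replicate block and leaving out each replicate; a further check read the called genes in other extracts. Some genes that the rule names are not reported here.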

Additional observations from a re-analysis of the deposited data

Results flagged for a closer look

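The dose step from low to medium differed between Aucklandiae Radix and Polygalae Radix by the interaction test of edgeR for 507 genes. The difference (log2, Aucklandiae Radix minus Polygalae Radix) was 1.62 for CYP4F3, 1.21 for AKR1C1, 1.12 for ITGB7, 1.11 for AKR1C2 and 1.05 for ALDH3A1. It was -1.43 for SLC6A20, -1.27 for LINC00261, -1.07 for CD200, -1.06 for DSEL and -0.99 for RASSF10. These are the largest differences in each direction among genes also called between medium and low dose, with a symbol and a mean of at least 2 CPM.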

How the results depend on the processing

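With the outlying library kept in (57 libraries), 50 genes were called between medium and low dose (30 higher, 20 lower), 2021 for the step difference, 40 for the difference between extracts, 6775 for high minus vehicle and 797 for Guibi-tang high minus low; 47 and 50 calls were shared with high minus vehicle and with Guibi-tang. Fitting only the 4 libraries called 1328 (751 higher, 577 lower), and fitting only set 11 called 116 lower and 334 for the difference between extracts. Leaving out 1 of the 4 libraries gave 186 to 239 called genes, 115 to 148 higher and 66 to 91 lower, and leaving out 1 library of any group used up to 492, 286 and 206. The same gave 275 to 535 for the difference between extracts, and 174 to 441 and 178 to 438 shared with high minus vehicle and Guibi-tang. The causes were not tested. With a replicate block 569 genes were called (317 higher, 252 lower), 434 of them also without it; deviations of same-numbered libraries correlated at 0.0455 over 10627 genes, so with 2 pairs the numbers are not taken as a pairing. Without composition factors 400 were called (203 higher, 197 lower), with DESeq2 461, with RLE size factors 445, without a low-count filter 457 and with a stricter one 470. In each of these settings 0 genes called in both fits had opposite signs. Contrasts with the vehicle and Guibi-tang could not be fitted within set 11. Depth limits what can be said of genes under a few CPM.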
